A study of Mus musculus with 6 samples.

Results

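The 34 genes considered here, members of the cell cycle and of DNA replication machinery, were read by symbol from a gene count table of mouse liver with and without DEHP, di(2-ethylhexyl) phthalate, a plasticizer. The list holds 9 cyclins, kinases and E2F1 of G1, 3 inhibitors of cyclin-dependent kinases, 10 genes of DNA replication and 12 genes of G2 and mitosis. A row existed for 33 of the 34 symbols among 41096 annotated rows, and 28 of the 33 held enough counts to be tested. The study compared 3 control libraries of liver tissue, without DEHP, with 3 libraries of liver tissue exposed to DEHP, whose columns carry the word High. The design text of the series instead speaks of bisulfite data from HepG2, a human liver cell line, so the groups rest on the sample titles. The labels name no strain, sex, age, dose or duration. Nothing says that each library is a different animal, so the p-values reflect only how far these libraries differ, which may be technical. Total counts ran from 10410098 to 14229803 a library.

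The cell cycle is driven by cyclin-dependent kinases, which need a cyclin partner and are held back by inhibitor proteins. D-type cyclins with Cdk4 or Cdk6 free the transcription factor E2F1 from the retinoblastoma protein in G1, E2F1 switches on replication genes such as the MCM helicase, and cyclin B with Cdk1 starts mitosis. Most hepatocytes of an adult liver rest outside the cycle and return to it after tissue loss or a mitogen, and some chemicals that activate PPARalpha or CAR are known mitogens of rodent liver.

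None of the 28 tested genes passed an adjusted p of 0.05 in edgeR's quasi-likelihood test, where 0.0722% of all 12468 genes tested did. At an unadjusted p of 0.05 there were 5 of the 28, Ccnd1, Ccnd2, Mcm2, Mcm3 and Mcm5, all with lower values in exposed libraries. Of all genes 13.1% were at that level, and 6.97% were at that level with lower values. DESeq2 also gave 0 and 5 of the 28, against 2.18% and 13.4% of all genes. It gave no adjusted p to Ccnb2, Ccne2, Top2a, Ccna2 and Plk1, which therefore could not pass. In edgeR the count was 10 of 29 tested without control replicate 3 (16.0% of all genes) and 0 of 28 without control replicate 2 (10.6%). It was 3 of 28 without control replicate 1 (7.42%). It was 3 of 29 without exposed replicate 1 (14.3%) and 3 of 29 without exposed replicate 2 (7.41%). Without exposed replicate 3 it was 5 of 29 (9.53%). These were not always the same genes. Mki67 without exposed replicate 1, Top2a without exposed replicate 2 and Mcm4 without exposed replicate 3 were not among the 5 named above. Without the filter on low counts, Mcm2 and Mcm5 passed (edgeR adjusted p = 0.0461 and 0.0103), 2 of 33 members, where 2.41% of 20576 genes did. The log2 fold change of DEHP over control was below 0 for 23 of the 28 and for 52.9% of all genes. Its median was -0.32 over these 28 and -0.03 over all genes tested. The groups did not overlap for 3 of the 28, Cdk4, Mcm2 and Ccnb2, against 17.7% of all genes, so that share lay below the background.

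**Figure D1:**
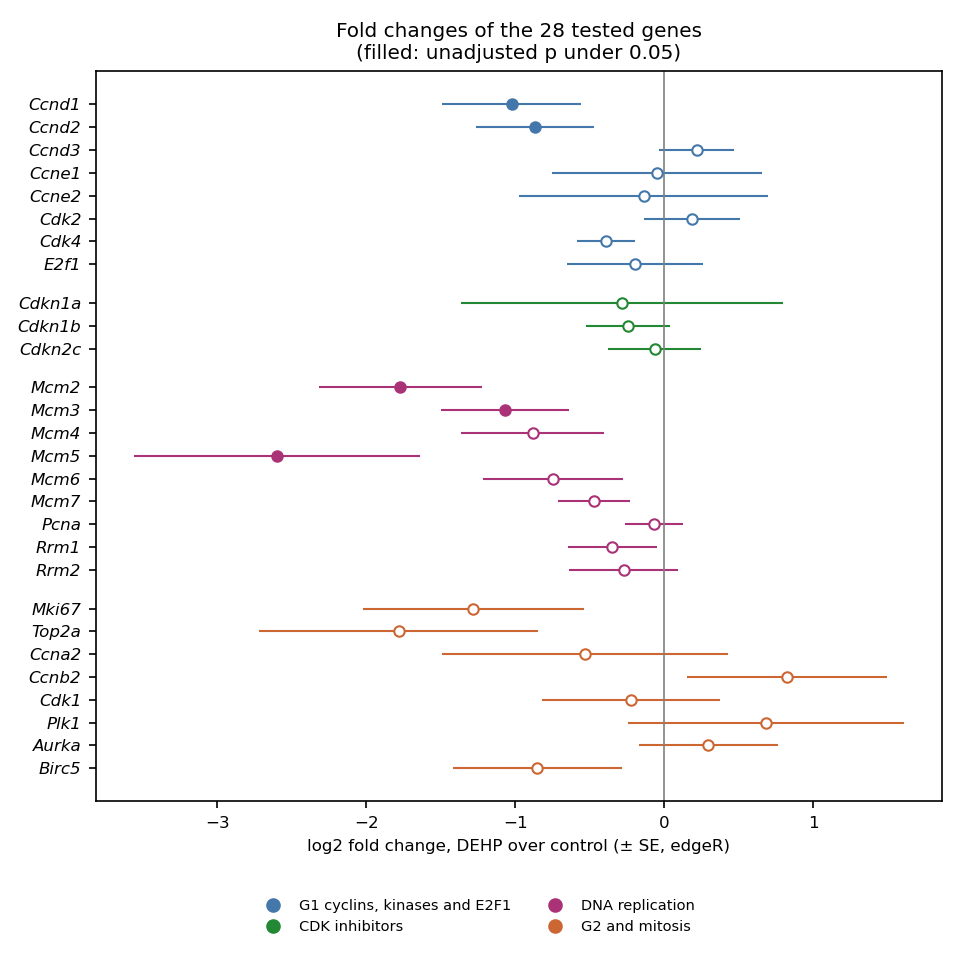
Log2 fold change of DEHP over control for each of the 28 tested genes, with bars of 1 standard error from edgeR, in 4 colours by phase. Filled points mark the 5 genes at an unadjusted p under 0.05, and all 9 points of DNA replication lie left of 0.

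The libraries differed inside the control group. Interferon-stimulated genes, the antiviral genes that interferon switches on, summed to 4069 CPM (edgeR's depth-scaled count unit, relative to TMM-scaled library totals) in control replicate 1 and 3182 in control replicate 2. They summed to 363 CPM in control replicate 3 and to 325 to 388 in the exposed libraries, over 18 of 20 listed genes with a row. The list was chosen with earlier results of these data known, so its count is only a description. Of 17 of these genes tested, 16 had an unadjusted p under 0.05, all lower, against 6.97% of all genes, and 0 passed after adjustment (edgeR). Fold changes were therefore also computed without control replicate 3, and without control replicates 1 and 2. The hepatocyte markers Alb, Apoa1, Ttr, Hnf4a and Cps1 summed to 87515 to 142948 CPM in the 6 libraries, so the markers of the labelled tissue were present.

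The MCM2 to MCM7 proteins form the ring-shaped helicase that is loaded at replication origins and unwinds DNA ahead of the fork. Mcm2 had 3.83, 8.14 and 2.22 CPM in control replicates 1 to 3 and 1.92, 1.05 and 1.19 CPM in the exposed libraries. Control replicate 2 was highest, and control replicate 3 lay just above the highest exposed library. Controls averaged 4.73 ± 3.06 CPM and exposed libraries 1.39 ± 0.471 (SD, n = 3), a log2 fold change of -1.77 ± 0.55 (SE, edgeR adjusted p = 0.220). Mcm2 had the smallest p of the 28 genes, 0.00579 before adjustment.

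Mcm5 had 3.26, 6.08 and 0.886 CPM in controls and 0, 0.349 and 1.27 CPM in exposed libraries. The groups overlapped, since exposed replicate 3 exceeded control replicate 3. The controls rested on 46, 77 and 10 counts and the exposed libraries on 0, 4 and 15, and the count of 0 allows up to 3 counts, or 0.304 CPM. Its log2 fold change was -2.60 ± 0.96 (SE, edgeR adjusted p = 0.310). This fitted value depends on rows of few counts.

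Mcm3 had 8.65, 7.90 and 3.01 CPM in controls and 2.94, 3.75 and 2.63 CPM in exposed libraries, a log2 fold change of -1.07 ± 0.43 (SE, edgeR adjusted p = 0.329). Control replicate 3 lay inside the exposed range. Mcm6 had 11.3, 8.30 and 2.48 CPM in controls and 4.05, 5.58 and 3.57 CPM in exposed libraries (-0.74 ± 0.47, edgeR adjusted p = 0.531). Here control replicate 3 was the lowest of all 6 libraries. Mcm4 had 4.39, 5.22 and 2.48 CPM in controls and 1.82, 1.48 and 3.23 CPM in exposed libraries (-0.88 ± 0.48, edgeR adjusted p = 0.451). Mcm7 had 20.6, 21.3 and 15.7 CPM in controls and 15.0, 15.7 and 10.9 CPM in exposed libraries (-0.47 ± 0.24, edgeR adjusted p = 0.420). In all 6 genes control replicates 1 and 2 both lay above control replicate 3 and above every exposed library, an order found in 12.7% of all genes tested. The order was taken from these same libraries and the 6 genes were grouped after their values were seen. The comparison with all genes is therefore only a description.

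**Figure D2:**
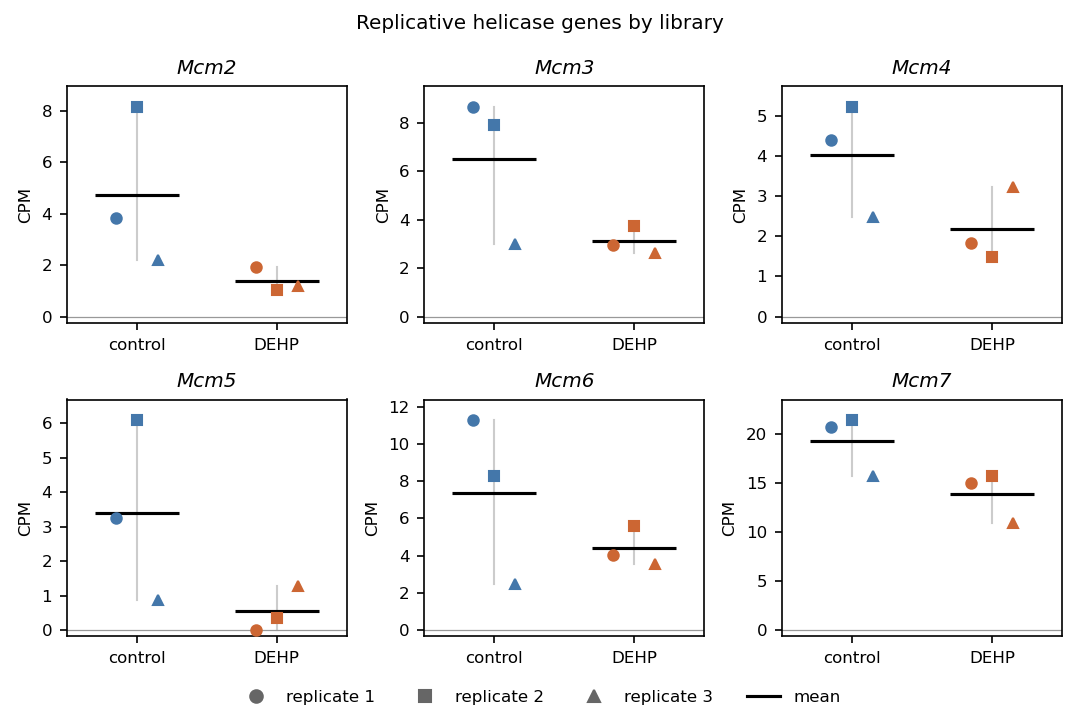
CPM of Mcm2 to Mcm7 in each library, with control at left and DEHP at right, a symbol per replicate number a black line at the group mean and a grey line over the range. Control replicates 1 and 2 stand above the other 4 libraries in every panel, and control replicate 3 sits inside the exposed range in 4 of them, below it for Mcm6 and above it for Mcm2.

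Summed over Mcm2 to Mcm7, a set put together after their values were seen, the controls had 52.0, 57.0 and 26.8 CPM and the exposed libraries 25.7, 27.9 and 22.8. Control replicate 3 thus stood within the exposed range on this sum, and both other controls stood well above all 4. Without control replicate 3, 10 of 29 tested members had an unadjusted p under 0.05, all lower, against 8.32% of all genes with lower values, and all 6 MCM genes were among them. In that fit Mcm2 passed (log2 fold change -2.08 ± 0.53, edgeR adjusted p = 0.0425), where 3.10% of all genes did. Without control replicates 1 and 2, where control replicate 3, the lone control, is assumed to vary like the exposed libraries, no member had an unadjusted p under 0.05, against 4.78% of all genes (edgeR). Mcm6 then had 0.84 ± 0.62 and Mcm3 0.06 ± 0.64, the opposite sign, while Mcm2 had -0.67 ± 0.88 and Mcm5 -0.67 ± 1.65.

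**Figure D3:**
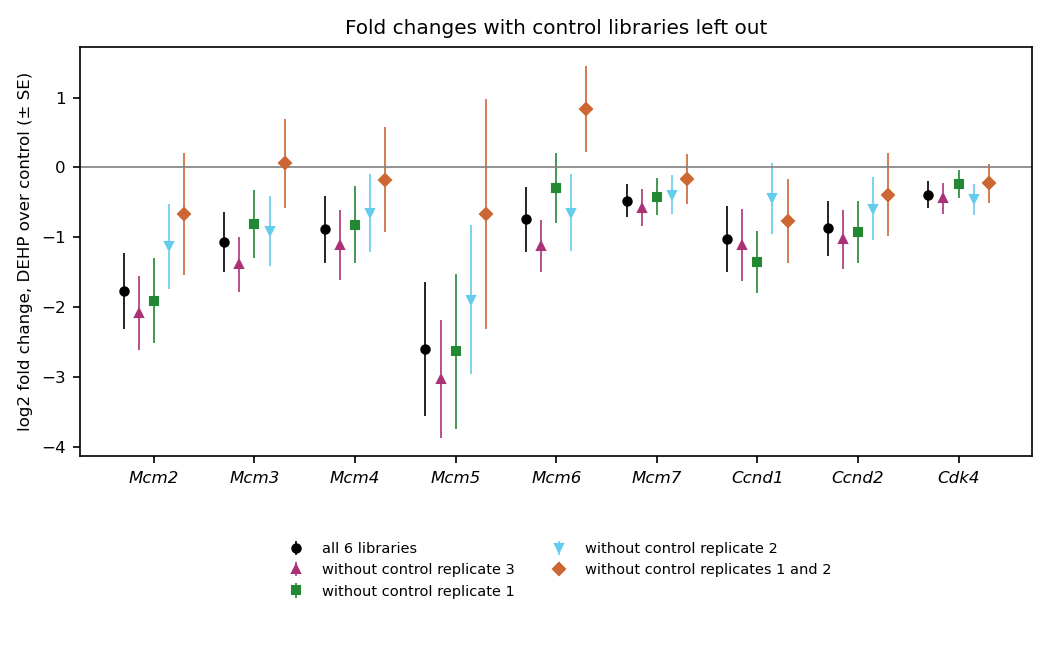
Log2 fold change of DEHP over control, with bars of 1 standard error, for 9 genes and 5 choices of control libraries. With control replicates 1 and 2 left out, the MCM values lie between -0.67 and 0.84, and for all 6 libraries between -2.60 and -0.47.

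Markers of macrophages and Kupffer cells, the resident macrophages of the liver, were also high in control replicates 1 and 2. Over 12 of 13 markers with a row they summed to 884, 809 and 262 CPM in controls and to 279, 407 and 344 CPM in exposed libraries. Of the 12 markers tested 5 had an unadjusted p under 0.05, all lower, against 6.97% of all genes (edgeR, 0 passed after adjustment). This list too was chosen with earlier results known, so the count is a description. Clec4f, a receptor of Kupffer cells, had 233, 188 and 70.2 CPM in controls and 81.0, 104 and 84.7 in exposed libraries. Control replicates 1 and 2 lay above the other 4 libraries for 9 of the 12 markers, and not for Adgre1, Vsig4 and Ptprc. Ptprc, the leukocyte antigen CD45, was highest in exposed replicate 3, at 13.4 CPM against 12.5 and 9.17 in control replicates 1 and 2. The sum rests mostly on abundant markers such as Clec4f, Cd5l and C1qa. C1qa, a complement subunit made by macrophages, had 154, 134 and 38.8 CPM in controls and 33.8, 49.9 and 47.8 in exposed libraries. The part of these cells, and of the interferon genes, in the MCM values was not tested. In bulk tissue, fewer cells of a type and less RNA per cell cannot be told apart.

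Of the other cell type lists, that of neutrophils placed control replicates 1 and 2 above the other 4 libraries in its sum. The sums were low, at 6.10 and 3.79 CPM against 1.11 to 3.66. That order held for 2 of its 8 markers, and 1 of the 8 held enough counts to be tested. S100a9 had 1.74 CPM in control replicate 2 and 1.83 in exposed replicate 2, and Ly6g and Mpo had 0 counts in all libraries. Sums of the remaining lists did not show the order. T and NK cell markers summed to 6.29 to 10.3 CPM in controls and 3.85 to 12.4 in exposed libraries. B and plasma cell markers summed to 5.67 to 6.82 CPM in controls and 7.09 to 17.2 in exposed libraries. Erythroid markers, 5 of 8 with a row, summed to 29.8 to 56.3 and 49.3 to 59.6 CPM. Endothelial markers ran from 194 to 242 and 111 to 218 CPM, stellate cell markers from 155 to 205 and 97.2 to 171, and cholangiocyte markers from 32.7 to 81.8 and 47.6 to 65.8.

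**Figure D4:**
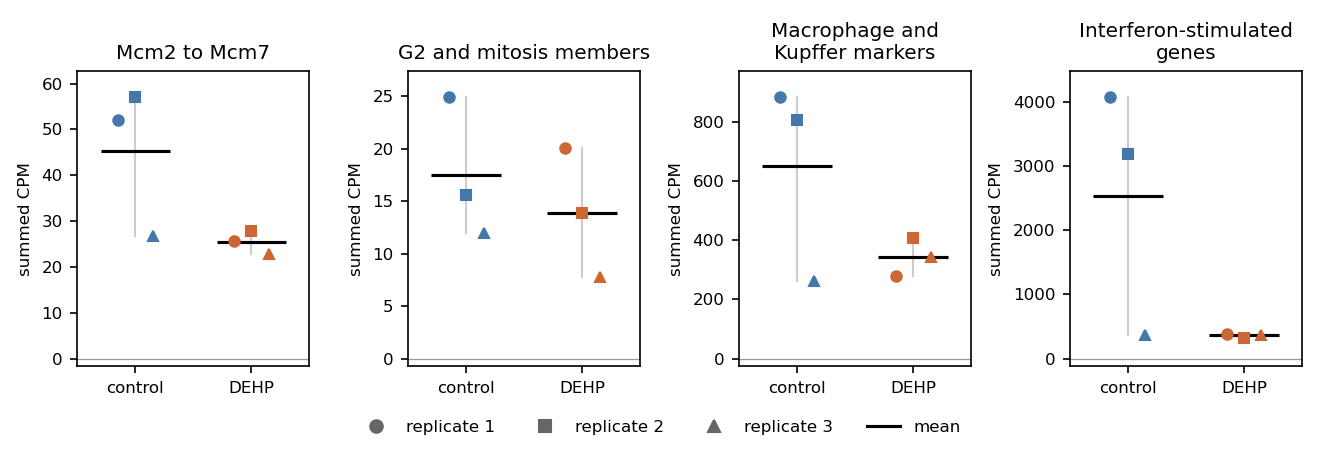
Summed CPM in each library for Mcm2 to Mcm7, for the 12 genes of G2 and mitosis, for macrophage and Kupffer cell markers and for interferon-stimulated genes, with a symbol per replicate number, a black line at the group mean and a grey line over the range. Control replicates 1 and 2 are the 2 highest libraries for the MCM genes, the macrophage markers and the interferon-stimulated genes, while exposed replicate 1 is second for G2 and mitosis.

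Among the members, Pcna, Rrm1 and Rrm2 had smaller fold changes than the MCM genes. Pcna, the sliding clamp that holds DNA polymerase on its template, had 30.8, 32.2 and 31.8 CPM in controls and 30.6, 34.4 and 25.4 CPM in exposed libraries. The groups overlapped, and the log2 fold change was -0.07 ± 0.20 (SE, edgeR adjusted p = 0.917). Its highest library was 1.35 times its lowest, the smallest such ratio among the members. Rrm1 and Rrm2, the subunits of ribonucleotide reductase, which makes deoxynucleotides, had -0.35 ± 0.30 and -0.27 ± 0.36 (edgeR adjusted p = 0.664 and 0.794). Their CPM ran from 6.68 to 11.4 and from 3.85 to 6.80.

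Tyms has no row under its symbol, and 1 row that carries an identifier in place of a symbol is described as thymidylate synthase, the enzyme that makes thymidylate. That row was found after the data were seen and is not counted among the members. It had 8.93, 7.51 and 5.41 CPM in controls and 4.35, 4.54 and 4.76 CPM in exposed libraries, so the groups did not overlap (log2 fold change -0.68 ± 0.33, edgeR adjusted p = 0.408). Control replicate 3 was the lowest control and lay above all exposed libraries, an order shared with Mcm2 among the MCM genes.

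Promoters of Mcm2, Mcm3, Mcm5 and Mcm6 are shown because control replicates 1 and 2 were highest for these genes, and that of Ccnb2 because its fold change was above 0. Mcm7, with the same controls highest, has 2 windows in the table, which were searched and are not printed. Promoter sequences were matched by symbol for 28 of 34 genes, from RefSeq on GRCm38.p6, each from 250 bases before to 50 after a start site. Ccna2, Ccnd1, Ccnd2, Ccne2, Foxm1 and Mcm4 had no entry. Capitals mark every match, on either strand, to E2F letters (TTTGGCGC, TTTCCCGC, TTTGGCGG or TTTCCCGG), to the cell cycle homology region CHR (TTTGAA or TTTAAA) and to CCAAT, the box bound by NF-Y. The sequences read 5′ to 3′ on the gene's strand.
Mcm2, chr6:88898731-88899030, strand minus: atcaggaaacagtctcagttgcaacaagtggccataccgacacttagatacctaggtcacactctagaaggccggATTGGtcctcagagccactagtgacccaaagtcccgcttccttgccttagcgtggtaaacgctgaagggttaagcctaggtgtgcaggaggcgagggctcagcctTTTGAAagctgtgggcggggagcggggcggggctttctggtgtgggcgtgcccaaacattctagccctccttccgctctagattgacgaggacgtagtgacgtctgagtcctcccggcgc
Mcm3, chr1:20820263-20820562, strand minus: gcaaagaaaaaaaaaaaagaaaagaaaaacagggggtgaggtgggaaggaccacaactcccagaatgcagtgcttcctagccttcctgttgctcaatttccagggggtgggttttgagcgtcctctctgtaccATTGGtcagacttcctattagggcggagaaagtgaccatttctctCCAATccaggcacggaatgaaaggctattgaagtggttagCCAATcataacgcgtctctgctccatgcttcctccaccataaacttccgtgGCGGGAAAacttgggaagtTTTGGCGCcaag
Mcm5, chr8:75109259-75109558, strand plus: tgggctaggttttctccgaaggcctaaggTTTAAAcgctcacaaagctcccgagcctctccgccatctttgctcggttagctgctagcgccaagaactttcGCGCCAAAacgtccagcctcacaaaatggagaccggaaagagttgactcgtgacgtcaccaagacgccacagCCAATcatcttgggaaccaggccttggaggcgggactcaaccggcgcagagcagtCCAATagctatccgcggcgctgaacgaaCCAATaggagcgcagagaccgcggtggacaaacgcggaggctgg
Mcm6, chr1:128359656-128359955, strand minus: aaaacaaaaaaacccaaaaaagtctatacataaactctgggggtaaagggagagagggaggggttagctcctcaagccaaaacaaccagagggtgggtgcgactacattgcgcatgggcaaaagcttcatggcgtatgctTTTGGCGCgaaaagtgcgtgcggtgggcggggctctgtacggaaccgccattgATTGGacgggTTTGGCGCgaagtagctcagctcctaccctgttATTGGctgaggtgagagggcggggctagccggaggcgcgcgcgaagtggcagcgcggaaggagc
Ccnb2, chr9:70421505-70421804, strand minus: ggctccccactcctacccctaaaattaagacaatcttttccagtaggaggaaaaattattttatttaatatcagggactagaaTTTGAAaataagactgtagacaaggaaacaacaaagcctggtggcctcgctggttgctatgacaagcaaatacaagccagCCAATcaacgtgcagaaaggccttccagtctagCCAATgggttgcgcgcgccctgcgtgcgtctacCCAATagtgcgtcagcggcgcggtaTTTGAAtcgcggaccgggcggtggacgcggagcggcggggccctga

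E2F letters stood in the windows of 4 of the 5 MCM genes with an entry, Mcm3, Mcm5, Mcm6 and Mcm7. By window this was 4 of 6, against 3.34% of all 32544 windows. Over all members they stood in 6 of 28 genes with an entry (6 of 32 windows). By phase this was 4 of 9 replication genes, 1 of 6 G1 genes, 0 of 3 inhibitors and 1 of 10 genes of G2 and mitosis. In Mcm6 the E2F letters began at -110 and -47 from the start site, in Mcm5 at -149, and in Mcm3 at 20 and 39. Mcm2, with the smallest p of the set, had none of these letters in its window, but a TTTGAA at -70 and a CCAAT on the other strand at -175. CHR letters stood in 9 of the 10 genes of G2 and mitosis with an entry (9 of 10 windows). They stood in 3 of 9 replication genes (3 of 10 windows), against 27.5% of all windows. CCAAT stood in 9 of those 10 genes of G2 and mitosis (9 of 10 windows). It stood in 8 of the 9 replication genes (9 of 10 windows), against 37.4% of all windows. In Ccnb2 the 3 CCAAT boxes began at -87, -54 and -21, and TTTGAA began at -167 and at 5. A match is a run of letters and was not tested for binding.

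In G1, the D-type cyclins, which join growth signals to the cycle, had fold changes of either sign. Ccnd1 had 2.76, 9.25 and 4.70 CPM in controls and 2.33, 2.36 and 3.48 CPM in exposed libraries. Control replicate 2 was highest by far, and control replicate 1 lay inside the exposed range. The log2 fold change was -1.03 ± 0.47 (SE, edgeR adjusted p = 0.375), and without control replicate 2 it was -0.44 ± 0.50. Ccnd2 had 5.88, 8.61 and 4.61 CPM in controls and 2.53, 3.05 and 4.84 CPM in exposed libraries. Its groups overlapped through control replicate 3 and exposed replicate 3 (-0.87 ± 0.40, edgeR adjusted p = 0.375).

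Ccnd3 was the most abundant D-type cyclin per length of its row, at 4.99 CPM per kb on average against 1.08 for Ccnd1 and 0.522 for Ccnd2. It had 28.4, 39.4 and 54.1 CPM in controls and 57.0, 35.1 and 49.6 CPM in exposed libraries. The groups overlapped widely, with a log2 fold change of 0.22 ± 0.25 (SE, edgeR adjusted p = 0.757).

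Cdk4, the kinase partner of the D-type cyclins, had 54.3, 40.8 and 40.6 CPM in controls and 35.8, 33.8 and 33.8 CPM in exposed libraries. All 3 exposed libraries lay below all 3 controls, control replicate 3 included. The log2 fold change was -0.39 ± 0.19 (SE, edgeR adjusted p = 0.408), -0.24 ± 0.20 without control replicate 1 and -0.22 ± 0.28 without control replicates 1 and 2. The row of Cdk4 overlaps that of Tspan31 on the other strand by 604 bases, and the sources used here do not say whether counting used strand. Tspan31 had a log2 fold change of -0.08 ± 0.21.

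Cdk2, which pairs with cyclin E at the entry to S phase, ran from 5.53 to 12.5 CPM (log2 fold change 0.18 ± 0.32, edgeR adjusted p = 0.851). Its partners Ccne1 and Ccne2 were rare, at 0.436 to 3.14 and 0.262 to 3.14 CPM. Both were highest in exposed replicate 1 and lowest in exposed replicate 2, so the exposed libraries spanned the whole range. Their log2 fold changes were -0.05 ± 0.71 and -0.14 ± 0.84 (edgeR adjusted p = 0.986 and 0.963). E2f1 had 5.67, 2.29 and 3.01 CPM in controls and 3.95, 3.31 and 2.38 CPM in exposed libraries (-0.19 ± 0.46, edgeR adjusted p = 0.899).

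Among the inhibitors, Cdkn1a, which encodes p21 and is a target of p53, varied more than almost any gene within groups. It had 9.0, 1.74 and 18.3 CPM in controls and 3.14, 17.1 and 3.40 CPM in exposed libraries. A high and a low library stood in each group, and the highest was 10.5 times the lowest. The SD of log2 CPM within groups was 1.52, above that of 99.2% of all genes tested, where the median was 0.33. Counts of 22 to 206 a library lay behind these values. The log2 fold change of -0.29 ± 1.08 (SE, edgeR adjusted p = 0.943) therefore leaves a wide range, and became 0.58 without control replicate 3 and -1.55 without exposed replicate 2.

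Cdkn1b, which encodes p27, an inhibitor of resting cells, had 15.9, 16.4 and 18.5 CPM in controls and 8.30, 18.4 and 16.1 CPM in exposed libraries. Exposed replicate 1 alone stood low (log2 fold change -0.25 ± 0.28, edgeR adjusted p = 0.755). Cdkn2c, which encodes p18, an inhibitor of Cdk4 and Cdk6, had 9.85, 11.2 and 5.67 CPM in controls and 8.41, 9.16 and 8.07 CPM in exposed libraries (-0.06 ± 0.31, edgeR adjusted p = 0.955). Here control replicate 3 was lowest.

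**Figure D5:**
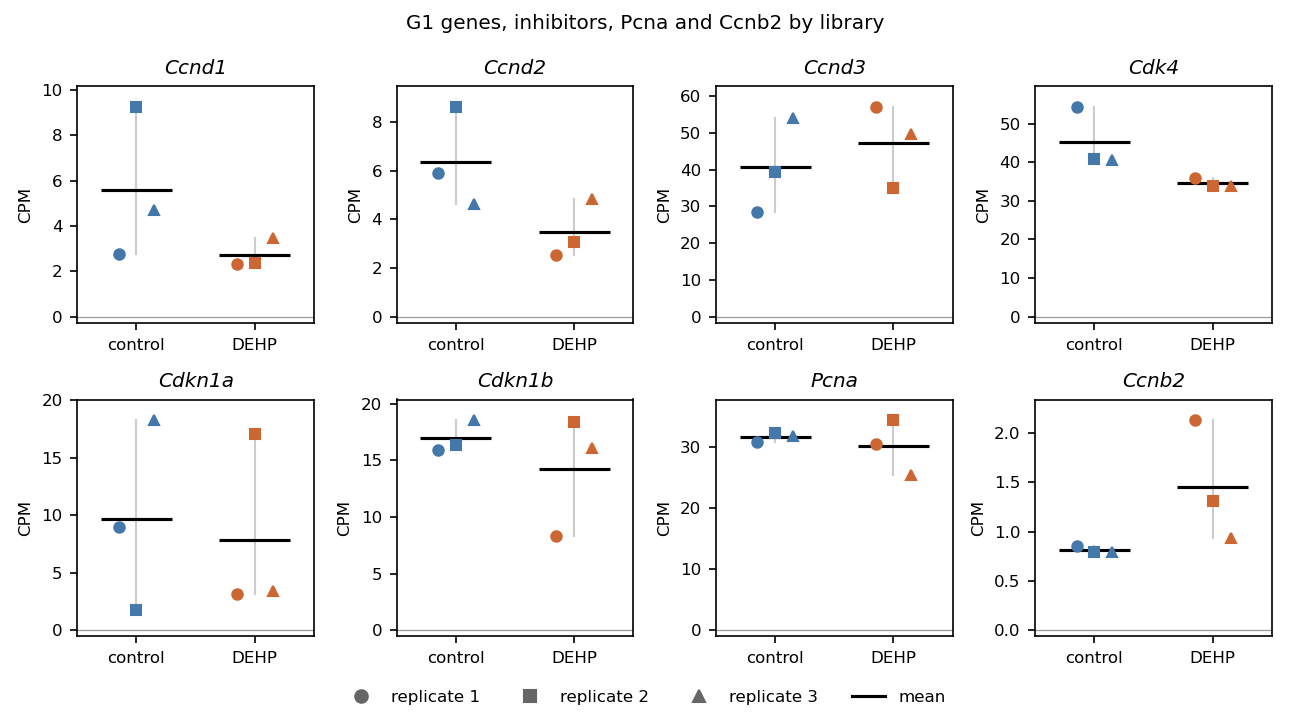
CPM in each library for the D-type cyclins, Cdk4, 2 inhibitors, Pcna and Ccnb2, with a symbol per replicate number, a black line at the group mean and a grey line over the range. Groups are separate for Cdk4 and Ccnb2, and Cdkn1a holds a high and a low library in each group.

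The genes of G2 and mitosis were at the edge of what these libraries can measure. Of 12 with a row, 4 were too low to test and 5 of the 8 tested had fewer than 10 counts in at least 1 library. Aurka, the centrosome kinase, was highest per length at 1.71 CPM per kb, and had 3.83, 2.53 and 5.32 CPM in controls and 7.80, 4.19 and 2.38 CPM in exposed libraries. All 3 controls lay inside the exposed range (log2 fold change 0.29 ± 0.47, edgeR adjusted p = 0.833). Cdk1, the mitotic kinase, had 4.96, 1.98 and 1.42 CPM in controls and 2.43, 3.75 and 1.02 CPM in exposed libraries (-0.22 ± 0.60, edgeR adjusted p = 0.912).

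Ccnb2, a B-type cyclin that activates Cdk1, had 0.851, 0.790 and 0.797 CPM in controls and 2.13, 1.31 and 0.934 CPM in exposed libraries. The exposed libraries all lay above the controls, on 9 to 12 counts in controls and 11 to 21 in exposed libraries. The log2 fold change was 0.83 ± 0.67 (SE, edgeR adjusted p = 0.644). Ccnb1, the other B-type cyclin listed, had 1 count in control replicate 2 and 0 in every other library.

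Mki67, which encodes the proliferation antigen Ki-67, had 4.68, 1.90 and 0.886 CPM in controls and 1.82, 0.349 and 0.934 CPM in exposed libraries. Control replicate 1 was highest, on 66 counts, and the other libraries held 4 to 24 (log2 fold change -1.28 ± 0.74, edgeR adjusted p = 0.485). Top2a, the topoisomerase that untangles chromosomes, had counts of 34, 25 and 6 among controls and of 0, 12 and 4 with DEHP (-1.78 ± 0.94, edgeR adjusted p = 0.436). Birc5, which encodes survivin, had 3.05, 3.56 and 1.51 CPM in controls and 1.82, 1.83 and 0.850 CPM in exposed libraries (-0.85 ± 0.57, edgeR adjusted p = 0.556). All 3 genes were higher in control replicates 1 and 2 than in the other libraries.

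Ccna2, the S and G2 cyclin, had counts of 21, 12 and 8 among controls and of 17, 0 and 6 with DEHP (log2 fold change -0.53 ± 0.96, edgeR adjusted p = 0.856). Plk1, a kinase of mitotic entry, had counts of 12, 5 and 4 among controls and of 15, 12 and 1 with DEHP (0.68 ± 0.92, edgeR adjusted p = 0.798). Like Ccne1 and Ccne2, both had low and high libraries in the exposed group.

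There were 5 genes too low to judge, and no fold change is given for them. Foxm1, a transcription factor of mitotic genes, had counts of 16, 13 and 5 among controls and of 8, 3 and 3 with DEHP. Cdk6, a partner of D-type cyclins, had 2 to 8 counts in every library. Cdc20, an activator of the anaphase-promoting complex, had counts of 20, 0 and 0 among controls and of 0, 1 and 6 with DEHP. Bub1, a spindle checkpoint kinase, had counts of 3, 5 and 0 among controls and of 0 in every exposed library. Ccnb1 was the fifth. A count of 0 allows up to 3 counts, or 0.213 to 0.304 CPM depending on the library, for counting error only.

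Of the 33 genes, 5 more are uncertain because a row on the other strand overlaps them: Ccnd1 with Oraov1, Ccnd3 with Bysl, Mcm7 with Cops6 and Ap4m1, Ccne2 with Ints8, and Ccna2 with Exosc9. Log2 fold changes of these partners were -0.41 ± 0.30, -0.44 ± 0.30, 0.22 ± 0.21, -0.13 ± 0.30, -0.11 ± 0.25 and -0.07 ± 0.30. In the deposited table's coordinates, which are those of the C57BL/6NJ strain annotation and differ from GRCm38.p6, Mcm2 spans chromosome 6 from 92715801 to 92731157 and Mcm3 chromosome 1 from 19295246 to 19312590. Mcm5 spans chromosome 8 from 78496882 to 78516994, Mcm6 chromosome 1 from 136520209 to 136550619, and Mcm7 chromosome 5 from 148313874 to 148321780. Mcm4 spans chromosome 16 from 12856354 to 12873643, and all 6 rows are annotated as protein-coding.

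By phase, the median log2 fold change was -0.74 over 9 replication genes, all 9 below 0, and -0.38 over 8 genes of G2 and mitosis, 5 of them below 0. It was -0.17 over 8 G1 genes, 6 below 0, and -0.25 over 3 inhibitors, all below 0, beside -0.03 over all genes. The replication median stayed below 0 with any single library left out, lowest when control replicate 3 was omitted (-1.11) and highest when control replicate 1 was (-0.50). It was -0.17 without control replicates 1 and 2, with 6 of 9 below 0. The G2 and mitosis median was 0.05 without control replicate 1 and -0.98 without exposed replicate 1, and the G1 median 0.15 and -0.53 in these fits. These medians describe the lists and were given no test.

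The wider machinery held 116 tested genes in 5 lists, none past the adjusted threshold (edgeR). At an unadjusted p of 0.05 they held 15, a share near the 13.1% of all genes. Of these, 4 had higher and 11 had lower values, against 6.11% and 6.97% of all genes. Of 39 other replication genes, 1 had higher and 3 had lower values at that level (median -0.29, 25 below 0). Pold1 and Pold3, subunits of DNA polymerase delta, had log2 fold changes of -0.97 ± 0.34 and -0.70 ± 0.30, and Prim2, a primase subunit, -1.58 ± 0.61. Tk1, thymidine kinase, had 0.54 ± 0.22, from 47.5 ± 13.8 to 69.0 ± 3.15 CPM (SD, n = 3), and its row overlaps that of Afmid on the other strand, which had 0.46. Mcm10, a replication initiation factor and the highest of the list in CPM with Tk1, had 0.12 ± 0.26. Control replicates 1 and 2 lay above all other libraries for 11 of these 39 genes, against 12.7% of all genes. The same order held for 1 of 24 other G1 and E2F/RB regulators and 3 of 16 other mitosis genes. It held for 4 of 21 p53 targets, 2 of 16 immediate early and mitogen genes and 12 of the 28 members.

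Of 24 other G1 and E2F/RB regulators, 1 had higher and 1 had lower values at that level (median 0.16). Of all genes, 6.11% had higher and 6.97% had lower values at that level. Rb1, the retinoblastoma gene, had a log2 fold change of 0.89 ± 0.36 and overlaps Rcbtb2 and Lpar6 on the other strand, and its relative Rbl1 had -1.88 ± 0.72. Rbl2, the family member of resting cells, had 0.12 ± 0.22, in a row that overlaps Aktip on the other strand, and Ccnh, a subunit of the CDK-activating kinase, 0.44 ± 0.25, in a row that overlaps a row without a symbol on the other strand (0.30). Of 16 other mitosis genes, Spc25, a kinetochore subunit, had 1.20 ± 0.44 and Incenp, of the chromosomal passenger complex, -1.29 ± 0.60 (median -0.19). The abundant Pttg1, securin, had -0.47 ± 0.24 and Bub3, a checkpoint protein, -0.15 ± 0.22.

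Of 21 p53 targets, 1 had higher and 3 had lower values at that level (median 0.01), beside the scattered values of Cdkn1a. The shares of all genes were 6.11% higher and 6.97% lower. Sesn2, a sestrin of the stress response, had 0.94 ± 0.32. Aen, an exonuclease of apoptosis, had -0.82 ± 0.25, Bax, a pore-forming apoptosis protein, -0.79 ± 0.32, and Phlda3 -2.24 ± 0.77 on 0.378 ± 0.240 CPM in exposed libraries (SD, n = 3). Ei24 and the kinase Plk3, the most abundant, had 0.16 ± 0.20 and 0.01 ± 0.34. Of 16 immediate early and mitogen genes, 3 had lower values at that level (median -0.36), against 6.97% of all genes. They were Fos (-1.12 ± 0.50) and Atf3 (-0.94 ± 0.41), transcription factors of the early response, and Yap1 (-0.42 ± 0.18), the effector of the Hippo pathway. Yap1 had 80.5 ± 1.44 CPM in controls and 60.2 ± 5.67 in exposed libraries (SD, n = 3), with groups that did not overlap. Egfr, the receptor of epidermal growth factor, had -0.09 ± 0.26 and Junb -1.02 ± 0.45. Adjusted p ran from 0.210 for Aen to 0.378 for Incenp over the 15 genes at an unadjusted p of 0.05.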

How the data were processed

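Messenger RNA of mouse liver tissue was purified on poly-T beads and made into 6 strand-marking, paired-end libraries, 3 control and 3 exposed to DEHP, per the labels' protocols. The authors deposited whole-number read counts per gene as a single table, with 6 count columns and a gene length, per the file headers. The build GRCm38.p6 is named in the submitters' processing notes, and the row identifiers are of the C57BL/6NJ strain annotation; no source used here names the aligner or counter. Groups came from the sample titles. Members and lists were chosen with earlier results of these data known.

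Rows without a gene name, 1284 of 42380, took 2.73% to 4.28% of counts and were left out. R 4.3.3 and edgeR 4.0.16 gave the two-sided test: a filterByExpr minimum count of 10, TMM, a robust quasi-likelihood fit without covariates, and Benjamini-Hochberg adjustment over 12468 genes with a threshold of 0.05. Standard errors were derived from the F statistic. CPM per kb divides CPM by the deposited gene length. All members are accounted for; values in every library are given for those at an unadjusted p under 0.05, those with groups that do not overlap and the 2 most abundant of each phase, and from each wider list fold changes of the genes of smallest p and highest CPM; not every gene the rule names is reported. The test was also run on simulated counts. These held no shift shared by some control libraries, so that run cannot vouch for the test where such a shift exists. Alternatives were RLE scaling, no filter, DESeq2 1.42.0, a replicate block, each library left out, and control replicates 1 and 2 left out. No pair of libraries of a group agreed within sampling noise (the smallest chi-square was 31.1 times its degrees of freedom).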

Additional observations from a re-analysis of the deposited data

How the results depend on the processing

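Genes past the adjusted threshold numbered 9 of 12468 in edgeR and with RLE scaling, 6 with the replicate block, 496 without the filter, 272 by DESeq2, 5 to 400 with 1 library left out and 0 without control replicates 1 and 2 (642 at an unadjusted p under 0.05). Members past it numbered 2 without the filter and 0 to 1 with 1 library left out, the 1 being Mcm2 without control replicate 3. Members at an unadjusted p under 0.05 numbered 3 with the replicate block (Mcm2, Mcm3 and Mcm7, against 13.6% of all genes), 0 without control replicates 1 and 2, and 0 to 10 with 1 library left out. In the wider lists 3 of 155 tested genes passed without the filter (Junb, Bax and Sesn2), against 2.41% of all genes. With 1 library left out 0 to 1 passed. The 1 was Aen without control replicate 3, of 121 tested, against 3.10% of all genes. The causes were not tested. No pairing of libraries by replicate number was detected, though 3 libraries a group cannot exclude one. Same-numbered libraries had correlations of deviations of -0.02, 0.06 and -0.03, and not every library correlated best with its own number. With 1 library left out, medians ran from -0.53 to 0.15 for G1, -1.11 to -0.50 for replication, -0.98 to 0.050 for G2 and mitosis and -0.46 to 0.048 for the inhibitors, and the replication median was -0.17 without control replicates 1 and 2. Of 308 fold changes of members under alternatives, 33 had the opposite sign, 0 of them with RLE scaling, no filter, DESeq2 or the replicate block. Without control replicates 1 and 2 these were Ccnd3 (-0.19), Ccne1 (0.35), Ccne2 (0.28), Cdk2 (-0.061), E2f1 (0.10), Cdkn2c (0.60), Mcm3 (0.058), Mcm6 (0.84), Rrm2 (0.11), Mki67 (0.22), Ccna2 (0.050), Cdk1 (0.77), Aurka (-0.15) and Birc5 (0.0050). With 1 library left out, the log2 fold change ran from -0.97 to 0.41 for Ccne1, -1.82 to 0.36 for Ccne2, -0.058 to 0.35 for Cdk2, -0.44 to 0.28 for E2f1, -1.55 to 0.58 for Cdkn1a, -0.46 to 0.048 for Cdkn1b, -0.28 to 0.14 for Cdkn2c, -0.16 to 0.042 for Pcna, -1.98 to 0.077 for Ccna2, -0.70 to 0.49 for Cdk1 and -0.22 to 0.62 for Aurka. A single sign held in every alternative for 11 of 28 members: Ccnd1, Ccnd2, Cdk4, Mcm2, Mcm4, Mcm5, Mcm7, Rrm1, Top2a, Ccnb2 and Plk1. Depth limits the genes of mitosis most, since 5 of 8 tested had a library under 10 counts.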
